A study of Mus musculus with 18 samples.

Results

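The ATF4 response genes are the targets and partners of ATF4, the transcription factor at the end of the integrated stress response. They were taken as a list of 36 named genes, and the symbols were matched to the gene identifiers of the deposited count table. All 36 were found among its 55414 genes, and all 36 were among the 21772 genes with enough counts to be tested. The RNA came from C2C12 myotubes, a mouse muscle line that fuses into multinucleated fibres when serum is withdrawn. Confluent myoblasts received a pool of siRNAs against Erk3 (siErk3, the kinase gene Mapk6), a pool against Mk5 (siMk5, the kinase gene Mapkapk5) or a non-targeting control (siNTC), and were differentiated for 6 days. Each of these cultures was then kept for 16 h in serum-free medium, either with 0.5 mM palmitic acid bound to BSA (PA) or with the BSA vehicle alone (BSA). This gave 6 groups of 3 poly(A) RNA libraries, 18 in all, so that serum withdrawal, transfection and BSA are shared by every group. The sources used here do not say whether the 3 libraries of a group came from separate cultures, so the p-values measure only the spread between these libraries, and a single cell line stands for muscle.

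In the integrated stress response, kinases that sense amino acid shortage, unfolded proteins in the endoplasmic reticulum, viral RNA or haem deficiency phosphorylate the initiation factor eIF2. General translation slows, but the Atf4 message is translated more, since short upstream reading frames no longer block its main frame. The ATF4 protein then switches on genes that import and make amino acids, supply serine and one-carbon units, restore translation and, under lasting stress, promote cell death. Saturated fatty acids such as palmitate are well known to stress the endoplasmic reticulum of muscle cells. ATF4 itself is controlled largely at translation, which RNA counts do not show.

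The libraries held 13041979 to 28496727 counts assigned to genes (median 22417470.5). Levels are given as CPM, the counts scaled to library size with TMM factors. Reads on Rn18s-rs5, an 18S ribosomal RNA gene, took 1.497 to 2.96% of the counts in siErk3 BSA, 2.56 to 7.17% in siNTC BSA, 8.39 to 12.9% in siMk5 BSA and 1.709 to 6.77% in the 9 PA libraries. Mapk6 stood at 56.6, 60.3 and 55.2 CPM in siErk3 against 135, 129 and 133 in siNTC under BSA (log2 fold change -1.20 ± 0.06, SE, FDR 1.77e-14), and under PA at 131, 119 and 109 against 215, 236 and 244 (-0.95 ± 0.06, FDR 1.21e-12). Mapkapk5 was low in every library. It was at 1.18, 2.01 and 1.70 CPM in siMk5 against 2.53, 2.54 and 2.32 in siNTC under BSA, and at 2.43, 2.33 and 2.17 against 2.52, 3.92 and 3.28 under PA. The Mapkapk5 groups did not overlap in either medium, but neither difference passed the test across all genes (FDR 0.469 in both). An exact two-sided permutation test of 3 against 3 libraries gave p = 0.1 for each of these 4 differences, the smallest value it can give. PA itself raised Mapk6, by 0.81 ± 0.06 in siNTC (edgeR FDR 2.11e-13) and by 1.06 ± 0.06 in siErk3 (FDR 9.4e-16). The Mapk6 mean in siErk3 PA, 119.9 CPM, was therefore near that of siNTC BSA, 132.3 CPM. Of 10 myotube markers in siNTC BSA, the most abundant were Acta1, Des and Myh3, which averaged 3190, 2012 and 2431 CPM. The least abundant was Actn2, at 162 CPM. Markers of dividing cells were present in the same libraries, with Mki67 at 408 and Top2a at 304 CPM on average. Of the 6 macrophage markers Adgre1 had no count, Ptprc 2 counts in all, and Csf1r, Itgam, Lyz2 and Cd68 93 to 483 counts over the 18 libraries.

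The first comparison asked what 16 h of PA did to these genes in cells with a control siRNA. Of the 36 genes, 35 rose and none fell, against 15.5% of all genes tested that rose and 15.1% that fell (30.6% either way). A gene was called when its FDR was below 0.05 and it changed more than 1.3-fold in either direction. The median log2 fold change of the 36 genes was 1.80, against -0.03 over all genes tested. The list was chosen with earlier results of these data known. Its contrasts with all genes, here and below, are therefore descriptive and are no independent test. In all 35, each of the 3 PA libraries lay above each of the 3 BSA libraries, a separation found in either direction for 51.3% of all genes. The exception was Cbs, cystathionine beta-synthase, which was close to absent. Its raw counts in siNTC were 3, 3 and 4 in BSA and 1, 0 and 3 in PA, out of 55 in the 18 libraries, too few to read a change. These are bulk libraries, so a change in RNA per cell cannot be told apart from a change in the make-up of the culture.

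**Figure D1:**
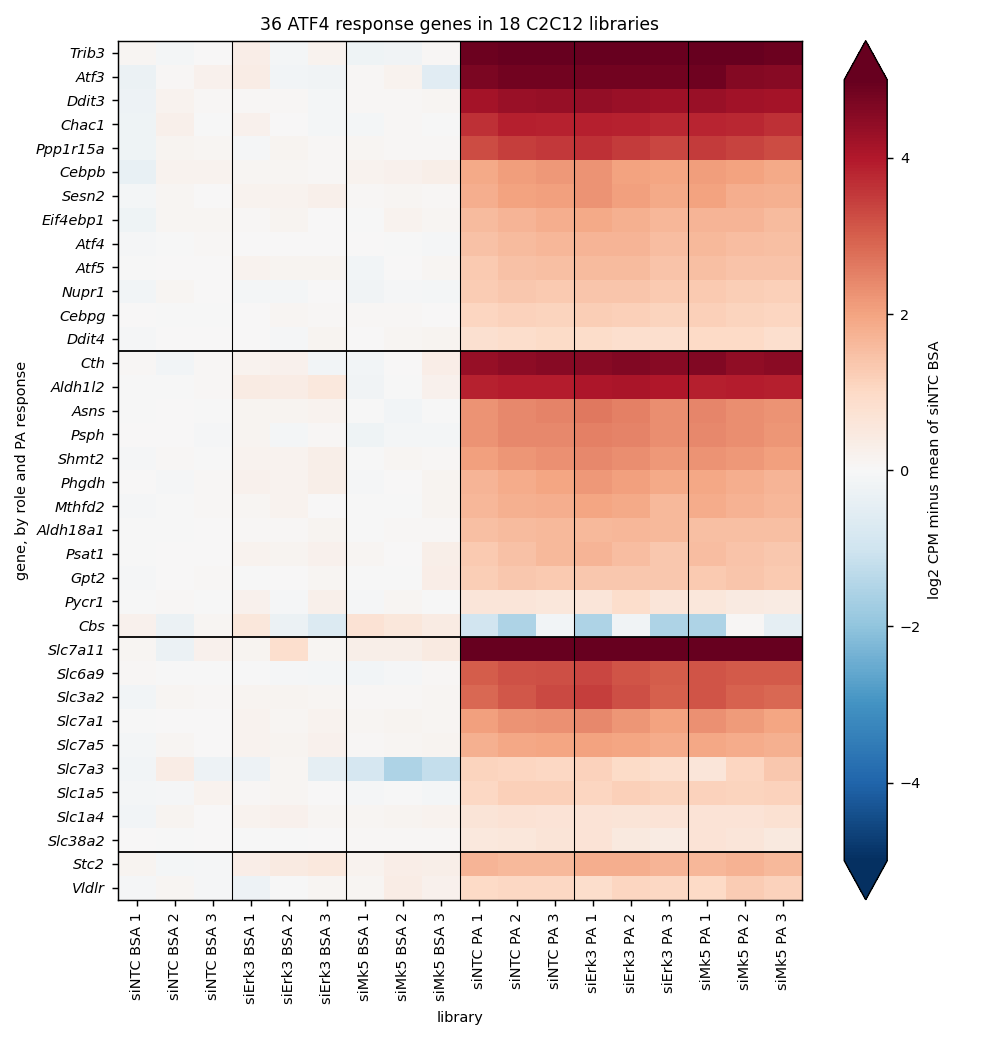
Level of each of the 36 genes in each of the 18 libraries, as log2 CPM minus the mean of the 3 siNTC BSA libraries, with red above and blue below that mean. Rows are grouped by role and ordered by the PA response in siNTC, and the colour saturates at 5, which Slc7a11 exceeded and Trib3 reached; 35 of the 36 rows turn red in PA in all 3 siRNA groups, and Cbs does not.

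The regulators of the response rose together. This group holds the transcription factors and the proteins that feed back on the pathway, and all 13 were called, with a median log2 fold change of 1.95. Atf4 (ENSMUSG00000042406, chr15:80139385-80141742 in GRCm39) was the most abundant of the 36 genes per exon length, at 94.8 ± 3.46 FPKM (the CPM divided by the exon length in kilobases, SD, n = 3) in siNTC BSA and 281 ± 18.4 in siNTC PA. Its libraries were at 216, 223 and 232 CPM in BSA against 616, 673 and 701 in PA with siNTC, 229, 228 and 227 against 732, 723 and 653 with siErk3, and 227, 218 and 214 against 696, 658 and 639 with siMk5. This was a 2.96-fold rise in siNTC, or 1.57 ± 0.05 in log2 (SE, FDR 2.09e-21), with no overlap between media in any siRNA group.

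Among the partners and downstream factors, the steepest rise was that of Atf3, a bZIP factor induced by many stresses. Atf3 was at 1.90, 2.42 and 2.74 CPM in BSA against 62.8, 68.04 and 68.5 in PA with siNTC, 2.9999, 2.11 and 2.08 against 67.6, 69.1 and 68.4 with siErk3, and 2.40, 2.67 and 1.55 against 70.4, 57.9 and 56.6 with siMk5. Ddit3 encodes CHOP, the factor linked to death under lasting endoplasmic reticulum stress, and was at 10.5, 14.5 and 13.4 CPM in BSA against 227, 252 and 259 in PA with siNTC, 13.4, 13.3 and 11.8 against 267, 255 and 238 with siErk3, and 13.4, 13.3 and 13.6 against 254, 237 and 226 with siMk5. From 10.5 to 14.5 CPM in the BSA libraries, Ddit3 passed 226 in each PA library, an 18.8-fold rise in siNTC (4.24 ± 0.08, FDR 9.5e-28). A short second identifier of Ddit3 covers 6.1% of its exonic bases, and reads there could not be assigned.

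Cebpb, a C/EBP factor that dimerises with ATF4, was at 26.9, 39.3 and 38.4 CPM in BSA against 129, 147 and 156 in PA with siNTC, 36.8, 36.9 and 35.99 against 165, 139.8 and 136 with siErk3, and 38.7, 40.3 and 41.996 against 148, 137 and 128 with siMk5. Its lowest BSA library was replicate 1 of siNTC. Cebpg, another dimerisation partner, was at 33.02, 31.5 and 31.97 CPM in BSA against 68.1, 70.7 and 70.2 in PA with siNTC, 32.6, 34.2 and 33.9 against 76.4, 73.9 and 68.7 with siErk3, and 33.6, 33.2 and 32.6 against 73.7, 70.5 and 66.9 with siMk5. Cebpg moved less than Cebpb, with 1.12 ± 0.05 against 2.02 ± 0.09 in siNTC. Atf5, a factor translated through upstream reading frames as Atf4 is, was at 97.7, 101 and 100.4 CPM in BSA against 249, 273 and 282 in PA with siNTC, 111, 109 and 109 against 296, 298 and 266 with siErk3, and 91.7, 102 and 106 against 281, 269 and 269 with siMk5. Nupr1, a small chromatin-associated stress protein, was at 35.97, 42.2 and 40.5 CPM in BSA against 96.3, 100.1 and 99.1 in PA with siNTC, 37.1, 36.8 and 40.5 against 103, 104 and 97.2 with siErk3, and 34.6, 37.99 and 37.1 against 98.7, 93.5 and 90.7 with siMk5. Atf5 and Nupr1 rose by similar amounts, 1.43 ± 0.05 and 1.31 ± 0.06 in siNTC, and neither overlapped between media.

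Trib3, a pseudokinase that binds ATF4 and dampens its activity, ranked 6 of 21772 genes by p in siNTC (FDR 6.1e-29). It was at 4.28, 3.75 and 4.02 CPM in BSA against 121, 131 and 136 in PA with siNTC, 5.07, 3.75 and 4.54 against 136, 135 and 125 with siErk3, and 3.49, 3.57 and 4.18 against 131, 129.98 and 121 with siMk5. The 32.5-fold rise (5.02 ± 0.08) set every PA library above 121 CPM while no BSA library passed 5.07. Ppp1r15a encodes GADD34, the phosphatase subunit that takes the phosphate off eIF2 and restores translation. It was at 21.4, 26.8 and 26.01 CPM in BSA against 239, 273 and 284 in PA with siNTC, 23.5, 26.7 and 25.3 against 307, 279 and 248 with siErk3, and 26.3, 25.3 and 25.5 against 281, 257 and 238 with siMk5. Chac1, which degrades glutathione, was at 5.97, 8.33 and 6.86 CPM in BSA against 89.4, 104 and 102 in PA with siNTC, 8.20, 7.17 and 6.55 against 104.9, 101 and 97.3 with siErk3, and 6.54, 7.30 and 6.86 against 98.2, 96.8 and 89.6 with siMk5. In siNTC, Ppp1r15a rose 10.6-fold and Chac1 13.7-fold.

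The remaining 3 regulators restrain mTORC1 or cap-dependent translation. Sesn2, a leucine sensor of that pathway, was at 16.2, 18.5 and 17.3 CPM in BSA against 60.5, 70.5 and 71.3 in PA with siNTC, 19.7, 19.3 and 20.7 against 82.9, 72.8 and 65.3 with siErk3, and 17.8, 18.6 and 18.3 against 69.8, 61.6 and 59.9 with siMk5. Eif4ebp1, which encodes the translation repressor 4E-BP1, was at 40.2, 49.5 and 49.2 CPM in BSA against 137, 149 and 164 in PA with siNTC, 47.8, 50.5 and 46.5 against 173, 157 and 144 with siErk3, and 45.8, 52.4 and 49.99 against 149, 151 and 139.5 with siMk5. Ddit4, known as REDD1, was at 25.2, 26.9 and 26.6 CPM in BSA against 46.2, 48.2 and 51.7 in PA with siNTC, 26.3, 25.3 and 28.7 against 49.3, 47.6 and 46.5 with siErk3, and 26.5, 27.8 and 29.05 against 52.3, 52.3 and 47.2 with siMk5. In siNTC the log2 fold changes were 1.95 ± 0.08, 1.68 ± 0.07 and 0.89 ± 0.06, and Ddit4 had the smallest change of the 13 regulators.

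**Figure D2:**
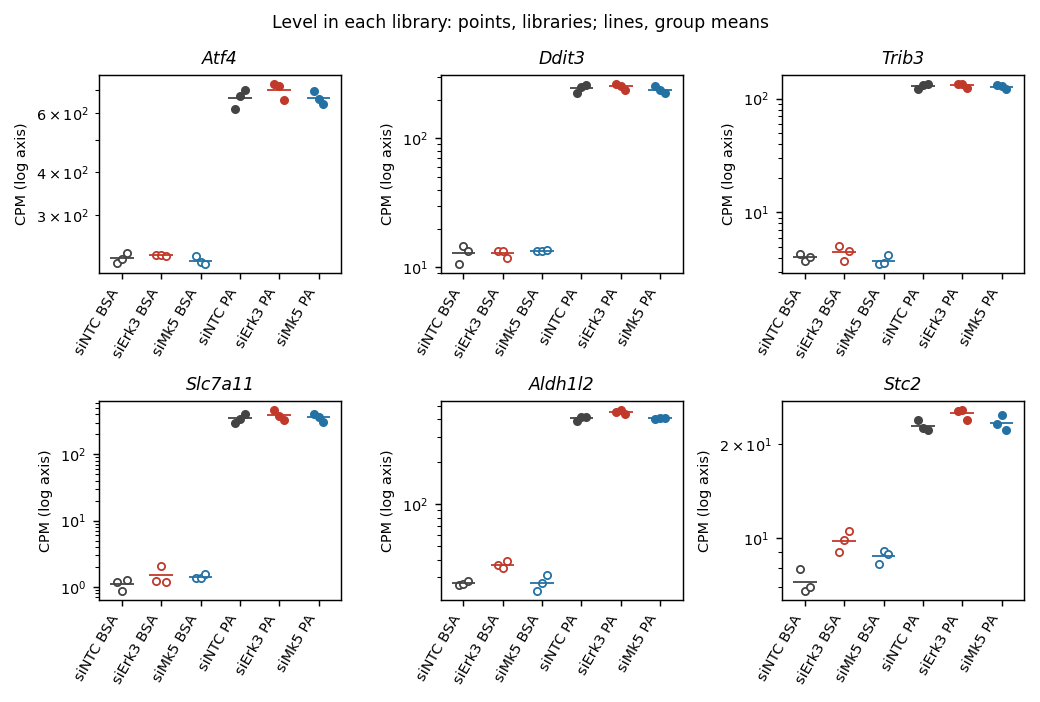
CPM on a logarithmic axis of Atf4, Ddit3, Trib3, Slc7a11, Aldh1l2 and Stc2 in each library (points, open for BSA and filled for PA) with the mean of each group of 3 as a line; each panel has its own scale. PA lies above BSA in every siRNA group, and in BSA the siErk3 libraries of Aldh1l2 and Stc2 lie above those of siNTC.

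Of the 12 enzymes that make serine, one-carbon units and other amino acids, 11 rose and Cbs was not called. The strongest was Cth, cystathionine gamma-lyase, which yields cysteine in the last step of transsulfuration. Cth was at 1.48, 1.25 and 1.47 CPM in BSA against 30.6, 32.8 and 34.8 in PA with siNTC, 1.61, 1.64 and 1.25 against 34.6, 36.8 and 34.5 with siErk3, and 1.26, 1.41 and 1.75 against 36.99, 31.8 and 33.7 with siMk5. Its 23.6-fold rise in siNTC (4.56 ± 0.12) stood beside Cbs, the enzyme one step earlier, whose 18 libraries held 0 to 8 counts each. Aldh1l2 (ENSMUSG00000020256, chr10:83323314-83370004), the mitochondrial 10-formyltetrahydrofolate dehydrogenase, was at 26.6, 27.1 and 28.3 CPM in BSA against 392.1, 419 and 419 in PA with siNTC, 36.8, 35.2 and 38.9 against 453, 468 and 438 with siErk3, and 24.1, 27.2 and 31.4 against 405, 412 and 410.2 with siMk5. It rose 14.97-fold in siNTC (3.90 ± 0.06, FDR 6.1e-29) and ranked 5 of 21772 genes by p.

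The 3 enzymes of the serine pathway, in their order in the pathway, are Phgdh, Psat1 and Psph. Phgdh was at 76.6, 71.6 and 77.3 CPM in BSA against 247, 273 and 292 in PA with siNTC, 88.1, 84.2 and 92.8 against 336, 312 and 277 with siErk3, and 71.6, 75.2 and 81.8 against 287, 262 and 246 with siMk5. Psat1 was at 115, 116 and 117 CPM in BSA against 289, 318 and 355 in PA with siNTC, 130.3, 127 and 135 against 371, 339.99 and 297 with siErk3, and 122, 119 and 142 against 335, 314 and 294 with siMk5. Psph, the last step, was at 14.3, 14.2 and 13.4 CPM in BSA against 66.5, 74.5 and 75.04 in PA with siNTC, 15.3, 13.03 and 14.6 against 79.4, 78.1 and 69.9 with siErk3, and 12.04, 12.9 and 13.2 against 73.8, 70.1 and 64.3 with siMk5. All 3 rose in each siRNA group without overlap between media. Per length Psph was the lowest of them in siNTC BSA, at 3.23 ± 0.11 FPKM (SD, n = 3), and it had the largest fold change. The log2 fold changes in siNTC were 1.85 ± 0.07 for Phgdh, 1.47 ± 0.07 for Psat1 and 2.37 ± 0.07 for Psph. Both mitochondrial one-carbon enzymes that follow rose as well. Shmt2, which takes the one-carbon unit from serine, was at 63.1, 68.3 and 65.5 CPM in BSA against 271, 302 and 318 in PA with siNTC, 74.95, 73.5 and 80.6 against 347, 329.6 and 294 with siErk3, and 63.8, 70.5 and 68.6 against 311, 291 and 273 with siMk5. Mthfd2, which oxidises the folate-bound unit, was at 31.8, 33.005 and 34.7 CPM in BSA against 104.97, 115 and 116 in PA with siNTC, 35.5, 37.3 and 33.8 against 131, 124 and 103 with siErk3, and 32.4, 33.1 and 36.7 against 119, 111 and 104 with siMk5. Their log2 fold changes in siNTC were 2.17 ± 0.06 and 1.75 ± 0.07.

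Asns, asparagine synthetase, was at 38.6, 39.2 and 38.5 CPM in BSA against 185, 207 and 216 in PA with siNTC, 42.6, 42.5 and 43.6 against 239, 222 and 194 with siErk3, and 38.2, 35.7 and 38.4 against 212, 196 and 183 with siMk5, a 5.22-fold rise in siNTC (2.38 ± 0.07). Gpt2, the mitochondrial alanine aminotransferase, was at 86.5, 90.97 and 92.7 CPM in BSA against 212, 230.4 and 220.4 in PA with siNTC, 88.7, 91.5 and 96.3 against 226, 230.1 and 232 with siErk3, and 88.7, 88.1 and 112 against 224, 235 and 225 with siMk5. The proline pathway moved unevenly. Aldh18a1, its first enzyme, was at 56.5, 56.97 and 57.7 CPM in BSA against 159.9, 173 and 173 in PA with siNTC, 59.9, 59.6 and 62.04 against 175, 181 and 175 with siErk3, and 55.6, 59.2 and 59.6 against 163, 163 and 161 with siMk5. Pycr1, its last, was at 11.8, 12.6 and 11.7 CPM in BSA against 18.3, 18.3 and 17.7 in PA with siNTC, 13.8, 11.5 and 14.3 against 18.4, 22.1 and 18.4 with siErk3, and 11.6, 12.9 and 11.97 against 18.1, 16.3 and 15.9 with siMk5. Aldh18a1 rose by 1.56 ± 0.05 and Pycr1 by 0.58 ± 0.09 in siNTC, the smallest change among the 35 genes called there.

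All 9 amino acid transporters rose. Slc7a11 (ENSMUSG00000027737, chr3:49846975-50398063), the cystine importer xCT, had the largest fold change of the 36 genes. It was at 1.19, 0.875 and 1.28 CPM in BSA against 301, 344 and 405 in PA with siNTC, 1.23, 2.07 and 1.18 against 469, 384 and 325 with siErk3, and 1.35, 1.36 and 1.55 against 409, 370.3 and 313 with siMk5. From about 1 CPM, with 17, 21 and 27 raw counts in siNTC BSA, it reached 6682 to 8010 raw counts in siNTC PA, a 318-fold rise (8.31 ± 0.18, FDR 1.13e-25). It ranked 5 of the 12734 genes with a mean of at least 1 CPM by fold change. Slc3a2, the heavy chain that carries Slc7a11 and Slc7a5 to the membrane, was at 74.3, 86.2 and 84.6 CPM in BSA against 600.3, 705 and 815 in PA with siNTC, 88.8, 88.98 and 87.2 against 907, 765 and 654 with siErk3, and 84.2, 86.1 and 88.2 against 728, 635 and 604 with siMk5. Per exon length it was second to Atf4 in siNTC PA, at 200.3 ± 30.4 FPKM (SD, n = 3). Slc7a5, the leucine transporter LAT1, was at 91.2, 105.1 and 99.96 CPM in BSA against 341, 379.7 and 389 in PA with siNTC, 111, 108 and 114 against 401, 388 and 356 with siErk3, and 102, 105.5 and 107 against 374, 353 and 339.7 with siMk5. Slc7a5 rose 3.74-fold, against 8.62-fold for Slc3a2.

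The other carriers covered a range of responses. Slc6a9, the glycine transporter GlyT1, was at 17.8, 17.002 and 16.7 CPM in BSA against 141, 155 and 162 in PA with siNTC, 17.1, 16.4 and 16.1 against 174, 152 and 141 with siErk3, and 15.7, 16.4 and 17.9 against 152, 144 and 144 with siMk5. Slc7a1, a cationic amino acid transporter, was at 62.2, 62.7 and 63.2 CPM in BSA against 259.7, 299.8 and 302 in PA with siNTC, 71.4, 67.9 and 71.2 against 328, 288 and 252 with siErk3, and 67.8, 69.5 and 66.4 against 302, 273 and 246 with siMk5. Both rose strongly in siNTC, by 3.15 ± 0.07 and 2.20 ± 0.08. Slc1a5, the glutamine transporter ASCT2, was at 10.9, 11.1 and 12.96 CPM in BSA against 23.8, 26.3 and 26.9 in PA with siNTC, 12.2, 12.3 and 11.7 against 24.8, 26.4 and 25.3 with siErk3, and 11.1, 11.4 and 10.7 against 25.7, 25.3 and 25.95 with siMk5. Its relative Slc1a4, which carries alanine, serine and cysteine, was at 57.9, 70.3 and 65.9 CPM in BSA against 102, 107 and 104.8 in PA with siNTC, 72.7, 75.1 and 69.9 against 104, 101 and 104.96 with siErk3, and 68.3, 69.996 and 72.3 against 103, 102 and 109 with siMk5. Slc38a2, the neutral amino acid transporter SNAT2, was at 375, 358 and 371 CPM in BSA against 536, 551 and 578 in PA with siNTC, 365, 365 and 373 against 594, 522 and 489.8 with siErk3, and 384, 383 and 383 against 589, 565 and 516 with siMk5. Slc38a2 was the most abundant transporter in siNTC BSA per length, at 41.7 ± 0.98 FPKM (SD, n = 3), and with 0.59 ± 0.05 it was among the 3 genes with the smallest rise in siNTC, next to Slc1a4 (0.69 ± 0.05) and Pycr1. Slc7a3, a second cationic transporter, rests on 276 counts in all, with 6, 15 and 8 in siNTC BSA and 25, 24 and 21 in siNTC PA. Slc7a3 was at 0.421, 0.625 and 0.378 CPM in BSA against 1.12, 1.09 and 1.06 in PA with siNTC, 0.380, 0.506 and 0.322 against 1.14, 0.977 and 0.893 with siErk3, and 0.218, 0.101 and 0.155 against 0.764, 1.07 and 1.34 with siMk5.

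The remaining pair of targets reach the membrane or leave the cell. Stc2, stanniocalcin 2, a secreted glycoprotein, was at 7.94, 6.79 and 6.998 CPM in BSA against 23.9, 22.4 and 22.2 in PA with siNTC, 9.04, 9.87 and 10.6 against 25.5, 25.7 and 23.8 with siErk3, and 8.29, 9.11 and 8.93 against 23.1, 24.6 and 22.2 with siMk5. Vldlr, the very low density lipoprotein receptor, was at 9.69, 10.8 and 9.55 CPM in BSA against 20.2, 20.6 and 20.6 in PA with siNTC, 8.32, 9.91 and 10.7 against 18.6, 20.9 and 20.5 with siErk3, and 10.6, 12.8 and 11.6 against 20.2, 24.5 and 22.1 with siMk5. Stc2 rose by 1.67 ± 0.08 and Vldlr by 1.02 ± 0.09 in siNTC, both without overlap between media.

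**Figure D3:**
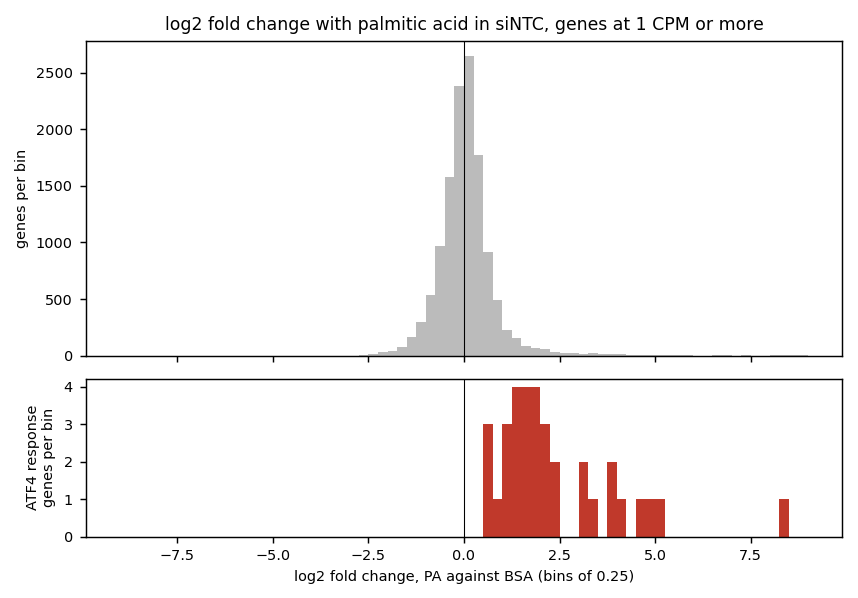
Number of genes in bins of 0.25 of the log2 fold change with PA in siNTC, for all 12734 genes with a mean of at least 1 CPM (upper panel) and for the 34 ATF4 response genes among them (lower panel). All genes centre near 0, while the 34 ATF4 response genes lie between 0.58 and 8.31.

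Promoter sequence was examined because ATF4 is known to bind, paired with a C/EBP protein, to an element with the core TGATGNAA. RefSeq windows (build GRCm38.p6, not the GRCm39 build of the counts) of 250 bases before to 50 bases after a gene's start were searched on both strands, and 30 of the 36 genes matched a window by symbol. A gene with several starts counted once, if any of its windows held the motif. Aldh1l2, Cth, Eif4ebp1, Slc1a5, Slc7a3 and Slc7a5 had no match. TGATGNAA was present in 9 of 30 genes (30.0%, exact 95% binomial interval 14.7 to 49.4%), against 1219 of 27025 genes with a window (4.51%). The list was made of ATF4 targets and partners, so a share above that of all genes was partly set by that choice. The comparison is therefore descriptive and is no test of ATF4 action in these cells. The 27025 genes include genes that were not tested here. With the stricter TGATGNAAT, which holds the first motif, the numbers were 2 of 30 (6.7%, 0.8 to 22.1%) and 1.08%. TGACGTCA, the palindromic cyclic AMP response element bound by ATF and CREB proteins, was in 1 of 30 (3.3%, 0.1 to 17.2%) and in 2.03% of all. A match describes these letters only, and its absence from the window says nothing of sites elsewhere. The stretches around the matches in the 10 genes follow, 5′ to 3′ along the strand of the gene with the matched letters in capitals, ordered by p in the siNTC comparison.
Trib3 (chr2:152344028-152344057, minus strand): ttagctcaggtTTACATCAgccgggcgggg
Slc7a11 (chr3:50443623-50443709, minus strand): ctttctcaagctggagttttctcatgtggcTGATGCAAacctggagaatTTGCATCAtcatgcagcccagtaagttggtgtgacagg
Chac1 (chr2:119351019-119351086, plus strand): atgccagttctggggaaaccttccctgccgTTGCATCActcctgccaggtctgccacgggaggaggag
Ppp1r15a (chr7:45526269-45526310, minus strand): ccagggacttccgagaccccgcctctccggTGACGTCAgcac
Atf3 (chr1:191183406-191183473, minus strand): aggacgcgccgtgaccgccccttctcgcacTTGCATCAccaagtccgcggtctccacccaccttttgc
Asns (chr6:7693210-7693262, minus strand): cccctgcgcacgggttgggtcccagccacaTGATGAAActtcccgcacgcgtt
Nupr1 (chr7:126625543-126625610, minus strand): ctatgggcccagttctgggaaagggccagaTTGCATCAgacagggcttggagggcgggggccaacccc
Slc1a4 (chr11:20332710-20332747, minus strand): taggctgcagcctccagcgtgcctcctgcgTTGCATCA
Vldlr (chr19:27216790-27216857, plus strand): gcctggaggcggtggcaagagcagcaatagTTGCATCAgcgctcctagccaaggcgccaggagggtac
Pycr1 (chr11:120643814-120643881, minus strand): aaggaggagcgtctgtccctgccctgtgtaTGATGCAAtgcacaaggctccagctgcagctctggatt

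Slc7a11, the gene with the largest rise, held a pair of matches in opposite orientation, which start 66 and 47 bases before the gene's start. In Trib3 the match starts at base 15 of the transcribed part, in Slc1a4 it begins 4 bases before the start, and in Asns 23 bases before it. The TGACGTCA of Ppp1r15a starts 12 bases before the start. The genes with a match did not all respond strongly, since Slc7a11 (8.31 ± 0.18) and Pycr1 (0.58 ± 0.09) are both among them, and Ddit3 (4.24 ± 0.08) has a window without a match.

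The next question was whether PA acted on these genes to the same degree once Erk3 or Mk5 was silenced. Within siErk3, 35 of the 36 genes rose with PA and none fell, where 32.1% of all genes were called (15.8% higher and 16.3% lower). Within siMk5 the count was also 35, against 29.7% of all genes (15.1% higher and 14.6% lower). The median log2 fold changes were 1.77 in siErk3 and 1.77 in siMk5. Each of these comparisons has its own BSA libraries. The exception was again Cbs, with 7, 3 and 2 counts in siErk3 BSA against 0, 4 and 0 in siErk3 PA, and 8, 6 and 5 in siMk5 BSA against 0, 4 and 2 in siMk5 PA. Over the alternatives run, Cbs was called, as lower, only when replicate 2 of siErk3 PA or of siMk5 PA, each with 4 counts, was left out. For Atf4 the log2 fold changes were 1.57 ± 0.05 in siNTC, 1.62 ± 0.05 in siErk3 and 1.60 ± 0.05 in siMk5. For Ddit3 they were 4.24 ± 0.08 in siNTC, 4.31 ± 0.07 in siErk3 and 4.16 ± 0.08 in siMk5. For Trib3 they came to 5.02 ± 0.08 in siNTC, 4.89 ± 0.08 in siErk3 and 5.09 ± 0.08 in siMk5. The values lay farther apart for Slc7a3, at 1.16 ± 0.31 in siNTC, 1.32 ± 0.30 in siErk3 and 2.67 ± 0.39 in siMk5.

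**Figure D4:**
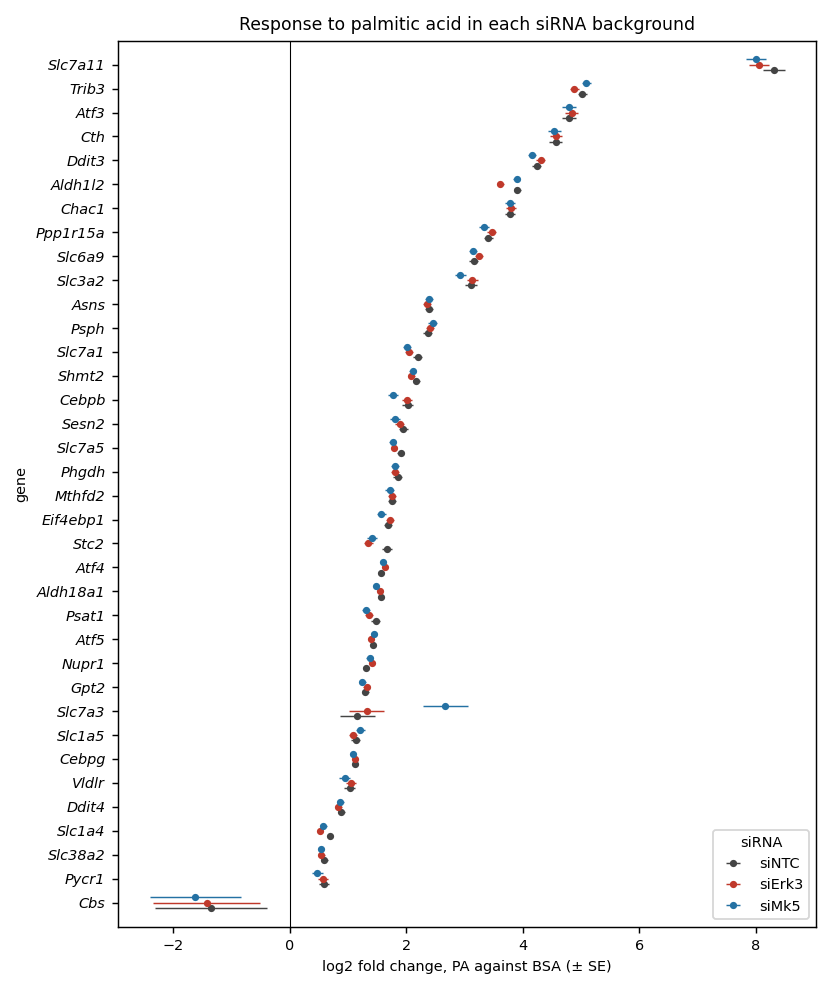
log2 fold change of PA against BSA (points, with SE as bars, 3 against 3 libraries) for the 36 genes in siNTC, siErk3 and siMk5, ordered by the value in siNTC. The 3 points of a gene lie close together except for Slc7a3, and the bars are widest for Slc7a3 and Cbs, the 2 genes with the fewest counts.

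The difference between these responses was tested as an interaction. None of the 36 genes passed by edgeR in siErk3, where 0.0367% of all genes did, and none in siMk5, where 0.211% did. DESeq2 gave 0 for both as well. At an unadjusted p below 0.05 there were 3 genes for siErk3 (Aldh1l2, Slc1a4 and Stc2) and 2 for siMk5 (Slc7a3 and Stc2), against 6.1% and 7.43% of all genes. The largest of these in siErk3 was Stc2, whose PA response differed from that in siNTC by -0.33 ± 0.11 in log2 (95% interval -0.56 to -0.09, FDR 0.57). Aldh1l2 had -0.29 ± 0.08 (-0.46 to -0.12, FDR 0.412). The 95% interval of the interaction lay within a 1.3-fold change in either direction for 28 of the 36 genes in siErk3 and for 26 in siMk5, Atf4 (-0.09 to 0.20 and -0.12 to 0.17) and Ddit3 (-0.15 to 0.30 and -0.31 to 0.15) included. The smallest FDR for siMk5 was that of Slc7a3, with 1.505 ± 0.53 (0.42 to 2.59, FDR 0.447), which rests on 5, 2 and 3 raw counts in siMk5 BSA. For Slc7a11 the intervals were wide, -1.11 to 0.59 and -1.20 to 0.58, and its level in BSA rests on 17 to 49 counts a library.

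Silencing was then compared with siNTC within each medium. The comparisons of siErk3 and of siMk5 in a medium share the siNTC libraries. In BSA, 2 of the 36 genes were higher in siErk3 and none was lower (5.56%, against 0.785% of all genes called, 0.588% higher). Aldh1l2 was at 36.8, 35.2 and 38.9 CPM in siErk3 and 26.6, 27.1 and 28.3 in siNTC, 0.43 ± 0.07 in log2 (FDR 0.000159). Stc2 was at 9.04, 9.87 and 10.6 and 7.94, 6.79 and 6.998, 0.46 ± 0.09 (FDR 0.00404). Neither gene overlapped between the groups. The 18S share was 2.96, 1.82 and 1.497% in the siErk3 BSA libraries and 2.56, 7.17 and 5.64% in those of siNTC BSA. With the 18S share as a covariate Aldh1l2 was still called, and Stc2 was not, at 0.32 with an FDR of 0.203. The FDR of Stc2 was also 0.0647 without replicate 2 of siNTC BSA and 0.0517 without replicate 3 of siErk3 BSA.

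Below the threshold, 10 of the 36 genes had an unadjusted p below 0.05 for siErk3 in BSA, a larger share than the 10.6% of all genes. All 10 genes had positive estimates. Besides the 2 called they were Atf5, Sesn2, Phgdh, Psat1, Shmt2, Slc7a5, Slc7a1 and Slc1a4, with log2 fold changes of 0.14 to 0.24 and FDRs of 0.125 to 0.45. Between siErk3 BSA and siNTC BSA, 12 of the 36 genes did not overlap, all of them higher in siErk3, against 17.4% of all genes in either direction. The median of the 34 genes with enough counts, taken in each library as a log2 difference from the siNTC BSA mean, was 0.10, 0.11 and 0.14 in the siErk3 BSA libraries and -0.05, 0.02 and 0.02 in those of siNTC. The myotube markers Myh8, Myh3 and Actn2 were higher in the same siErk3 BSA libraries (Myh8 0.56 ± 0.05, FDR 1.25e-07), 3 of the 10 on the marker list. The other 7 were not called, and Mb (-0.22 ± 0.05, FDR 0.00657), Tnnt3 (-0.15 ± 0.05, FDR 0.196) and Myog lay lower in siErk3 without overlap. The median of the list was 0.03 with 6 of 10 estimates above 0, and its summed level was 11300 to 12500 CPM in siErk3 BSA and 10150 to 10840 in siNTC BSA. Their part in these differences was not tested.

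In PA, siErk3 changed none of the 36 genes by edgeR or DESeq2, against 0.556% of all genes. Phgdh, Shmt2 and Aldh1l2, 3 of the 36 genes, had an unadjusted p below 0.05, against 8.28% of all genes. Phgdh was the largest at 0.19 ± 0.06 (FDR 0.267). The interval lay within 1.3-fold for 34 of the 36 genes, all but Cbs and Slc7a3. For Atf4 it was -0.02 to 0.18, for Ddit3 -0.08 to 0.16, for Trib3 -0.08 to 0.14 and for Aldh1l2 0.04 to 0.25.

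siMk5 changed none of the 36 genes in BSA by edgeR or DESeq2, where 0.0643% of all genes were called, and none in PA, where 0.547% were. In BSA, Slc7a3, Vldlr and Stc2, 3 of the 36 genes, had an unadjusted p below 0.05, against 6.89% of all genes. Slc7a3 was the lowest, with 5, 2 and 3 raw counts against 6, 15 and 8 (-1.57 ± 0.46, FDR 0.292). Stc2 was at 8.29, 9.11 and 8.93 CPM against 7.94, 6.79 and 6.998 (0.29 ± 0.10, FDR 0.456), above siNTC without overlap. Between siMk5 BSA and siNTC BSA, 9 of the 36 genes did not overlap, 6 of them higher in siMk5, against 12.3% of all genes. In PA no gene had an unadjusted p below 0.05, against 6.79% of all genes, and the interval lay within 1.3-fold for 34 of 36. In BSA the interval for siMk5 lay within 1.3-fold for 28 of 36. The Atf4 interval for siMk5 was -0.13 to 0.08 in BSA and -0.10 to 0.10 in PA.

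**Figure D5:**
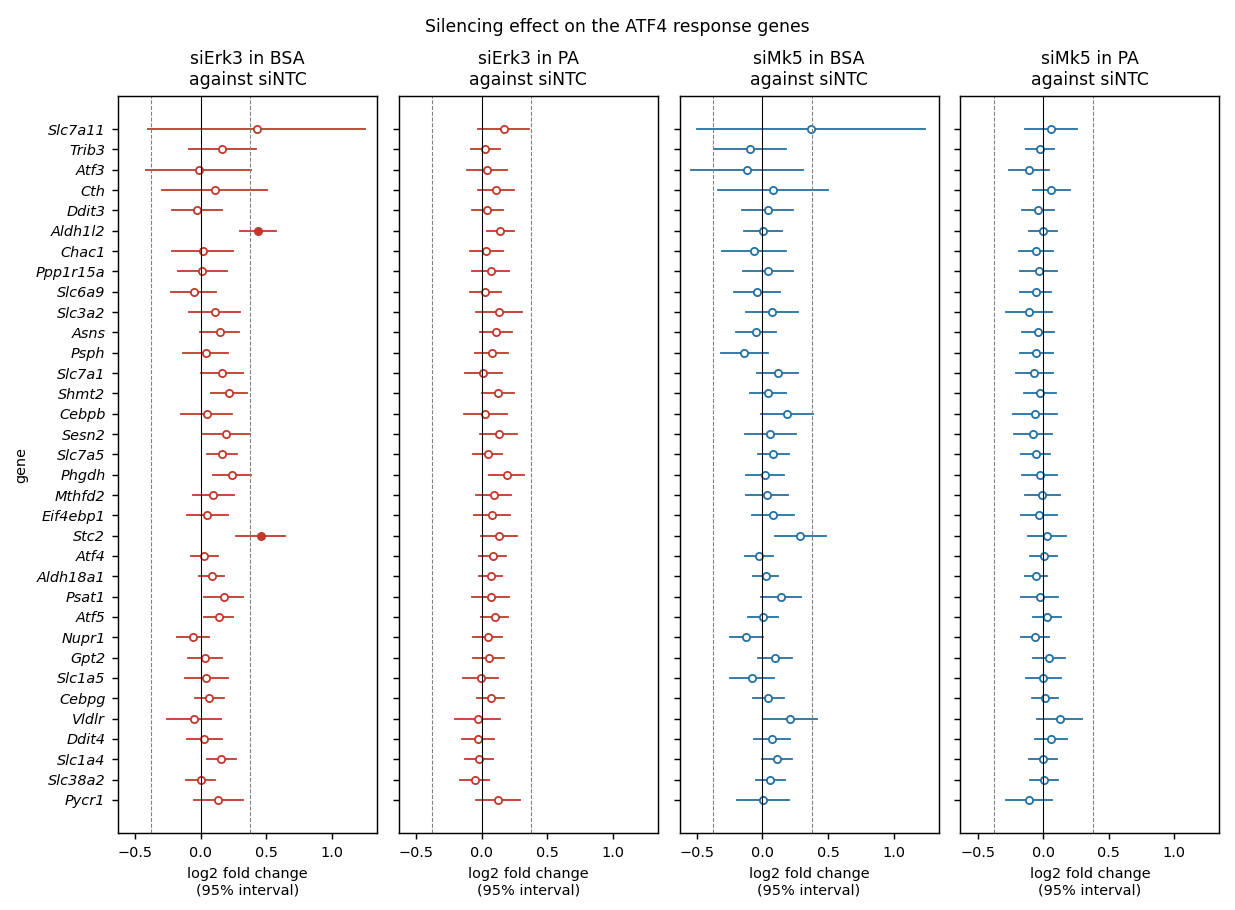
log2 fold change of siErk3 or siMk5 against siNTC in BSA or PA, with 95% intervals, for 34 genes (Cbs and Slc7a3 left out for low counts). Filled points passed the test, which were Aldh1l2 and Stc2 for siErk3 in BSA, and dashed lines mark a 1.3-fold change; in PA every interval shown lies between them.

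Set directly against each other, siErk3 and siMk5 differed in 1 of the 36 genes in BSA (2.78%, against 0.588% of all genes). This was Aldh1l2, at 36.8, 35.2 and 38.9 CPM in siErk3 and 24.1, 27.2 and 31.4 in siMk5 (0.43 ± 0.07, FDR 0.000208). The call was lost with the 18S share as a covariate (0.40, FDR 0.134), and without replicate 1 of siMk5 BSA the difference of 0.34 fell short of 1.3-fold (FDR 0.00546). Between siErk3 BSA and siMk5 BSA, 11 of the 36 genes did not overlap, 9 of them higher in siErk3, against 15.3% of all genes. In the same comparison 9 of the 36 genes had an unadjusted p below 0.05, against 8.49% of all genes. In PA siErk3 and siMk5 differed in none by edgeR or DESeq2, against 1.03% of all genes. At an unadjusted p below 0.05 there were 9 of the 36 genes in PA, a larger share than the 10.2% of all genes. The smallest FDR there was that of Phgdh, 0.22 ± 0.06 with an FDR of 0.098.

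The median level of the genes also varied between the libraries of a group. In siNTC PA the library medians of the 34 genes, again as log2 differences from the siNTC BSA mean, were 1.75, 1.90 and 1.97. In siErk3 PA they were 2.09, 2.00 and 1.87, and in siMk5 PA 1.93, 1.81 and 1.75. Over the 18 libraries, the genes with at least 10 CPM whose log2 level followed that of Atf4 most closely were Cyb5r1, Hspa5, Plin2, Zfand2a and Gars1, each with a Pearson r of 0.999 among 9331 genes, followed by Asns and Ppp1r15a of the 36. The step from BSA to PA is part of these values. Within groups, after subtracting each group mean, r with Atf4 was 0.85 for Asns, 0.87 for Slc3a2 and 0.82 for Ppp1r15a. These were also the closest to Atf4 of the 36 genes over all libraries. The other members with at least 10 CPM ranged within groups from 0.84 for Slc7a1 to -0.28 for Vldlr. Between these lay Sesn2 (0.78), Slc7a5 (0.76), Trib3 (0.21), Aldh1l2 (0.07) and Stc2 (-0.21), among others. Genes outside the list reached values similar to those of Asns and Slc3a2, such as 0.90 for Zfand2a and 0.85 for Plin2.

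The upstream branch of the pathway moved less uniformly with PA in siNTC. Of 20 kinases, subunits and regulators of eIF2, 9 rose and 1 fell (50%, against 30.6% of all genes called, 15.5% higher and 15.1% lower), with a median log2 fold change of 0.26. These percentages over all genes also apply to the lists that follow. Among the 4 eIF2 kinases, Eif2ak2 (PKR, the sensor of double-stranded RNA) rose from 37.7, 37.6 and 35.2 to 141, 121 and 131 CPM (1.83 ± 0.07, FDR 6.4e-20) and Eif2ak3 (PERK, the sensor in the endoplasmic reticulum) by 0.66 ± 0.07 (FDR 5.02e-10). Eif2ak4 (GCN2, the amino acid sensor) had 0.34 ± 0.07 and Eif2ak1 (HRI, the haem sensor) 0.05 ± 0.05, and neither met both criteria. Dnajc3, an endoplasmic reticulum chaperone known to inhibit PKR and PERK, rose by 2.06 ± 0.05, Impact, an inhibitor of GCN2, by 1.45 ± 0.06, and Eif2s2, a subunit of eIF2, by 0.76 ± 0.05. Oma1, a mitochondrial protease that can activate the response through Dele1, fell (-0.45 ± 0.10).

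Of 25 other enzymes of serine, one-carbon and amino acid metabolism, 11 rose and 3 fell (56%, median 0.31). The lowest p-values were those of Bcat1, the cytosolic branched-chain aminotransferase (2.81 ± 0.06), Got1 (1.83 ± 0.05), Mthfd1l (1.59 ± 0.07) and Oat (0.79 ± 0.05). Glul, glutamine synthetase (-0.82 ± 0.06), and Gldc, a subunit of the glycine cleavage system, were among those that fell. Of 17 other amino acid transporters tested, 6 rose and 4 fell (58.8%, median -0.08), with Slc38a1 (1.59 ± 0.05), Slc38a7 (1.74 ± 0.06), Slc25a22 (1.29 ± 0.08) and Slc36a1 (0.86 ± 0.07) higher. Those that fell were Slc1a3, a glutamate transporter (-1.52 ± 0.14), Slc7a2, Slc7a8 and Slc43a2. Of 15 partner factors and secreted stress hormones, 10 rose and 1 fell (73.3%, median 0.79). Gdf15, a stress hormone that reduces appetite, rose from 2.04, 1.75 and 1.32 to 44.99, 54.9 and 60.7 CPM (5.00 ± 0.15, FDR 1.23e-22), and Atf6, the factor of a parallel branch of the unfolded protein response, by 1.40 ± 0.05. Nfe2l2 (0.97 ± 0.06) and Gadd45a (0.91 ± 0.04) rose as well. Fgf21, a hormone known to be released by stressed muscle, rose from 7.52, 8.33 and 9.22 to 16.6, 19.7 and 20.3 CPM (1.16 ± 0.11), and Cebpa fell (-0.54 ± 0.10). Fgf21 and the genes that fell were named after their values were seen.

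Silencing changed 1 gene on these 4 lists. Eif2ak2 was at 93.2, 79.9 and 89.6 CPM in siMk5 PA against 141, 121 and 131 in siNTC PA (-0.58 ± 0.06, FDR 5.01e-07), with no overlap. It was 0.58 ± 0.06 higher in siErk3 PA than in siMk5 PA (FDR 1.09e-07). In BSA the siMk5 libraries, at 38.4, 37.2 and 39.4, overlapped those of siNTC. The siErk3 BSA libraries, at 51.9, 45.4 and 45.1, lay above siNTC BSA without overlap (0.37 ± 0.07, FDR 0.00313) but short of 1.3-fold, and in PA siErk3 and siNTC overlapped (95% interval -0.13 to 0.12). None of the 36 ATF4 response genes was called in the same siMk5 PA comparison.

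Markers of other states of the culture moved with PA in siNTC. Of 8 markers of undifferentiated or dividing myoblasts, 6 fell and none rose, against 15.1% of all genes that fell, and their summed level was 926 to 961 CPM in BSA and 449 to 527 in PA. Of 10 myotube markers 4 fell, namely Myog, Mymk, Myh8 and Ckm (summed 10150 to 10840 CPM, and 9432 to 9599 in PA). Of 6 fibroblast markers 5 fell (109 to 118, and 60.9 to 71.4), and of 4 macrophage markers tested, 1 fell (2.18 to 2.695, and 1.72 to 2.52). Their part in the rise of the ATF4 response genes was not tested.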

How the data were processed

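RNA of 18 C2C12 libraries was analysed, 3 in each of 6 groups taken from the sample titles. The count table was deposited by the authors as whole-number read-pair counts per gene, made with STAR and featureCounts 2.0.0 (Ensembl release 105, GRCm39, reverse strand, minimum mapping quality 3, primary alignments). The labels name mm10, but the file header names GRCm39. A second deposited table of log2 values of the same libraries was not used. Symbols came from the GENCODE release M39 annotation, which named 54749 of the 55414 genes.

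Genes with at least 10 counts over all libraries (21772) were fitted in edgeR 4.0.16 (R 4.3.3) with TMM scaling and the quasi-likelihood test, in 1 model over the 6 groups, with Benjamini-Hochberg adjustment (FDR) over all genes tested. A gene was called at an FDR below 0.05 and a fold change above 1.3. SE, 95% intervals and p come from this fit. Replicates of a group differed by more than counting noise (chi-square per degree of freedom 2.755 to 50.075). In siNTC BSA, replicate 1, the library with the fewest counts, differed from replicates 2 and 3 by 30.55 and 17.722. Replicates 2 and 3 of that group differed by 4.602. Promoter matches used RefSeq windows. In counts simulated for the siNTC comparison of PA with BSA (21363 genes, 200 changed), 100% of the changed genes were recovered and 7 unchanged genes were called. Recovery was not tested in the silencing comparisons, nor separately for small differences or for genes with few counts. Alternatives were other filters and scaling, DESeq2 1.42.0, a replicate block, the 18S share as a covariate, fewer groups in the fit, the FDR criterion alone and leaving out each library. Depth sets the precision: genes with few counts, such as Cbs (55 in all) and Slc7a3 (276), carry wide intervals.

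The 36 genes and the other lists were chosen with earlier results of these data known. Per-library values were given for each of the 36 genes called in any comparison. Of each other list, at most 4 called genes with the smallest p were named by rule, with the eIF2 kinases. Fgf21, the genes that fell and single markers were added after their values were seen. Also named were the 5 genes most correlated with Atf4, the silenced genes and the promoters with a match. Single values of some genes on the other lists are not reported here.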

Additional observations from a re-analysis of the deposited data

Results flagged for a closer look

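Eif2ak2, the gene of the eIF2 kinase PKR, differed between siRNA groups in its response to PA. Its log2 fold change with PA was 1.83 ± 0.07 in siNTC, 1.46 ± 0.07 in siErk3 and 1.19 ± 0.07 in siMk5 (SE, 3 against 3 libraries each). The interaction of siMk5 and PA was -0.64 ± 0.10 in log2 (95% interval -0.84 to -0.44, edgeR quasi-likelihood FDR 0.000819, a call made for 0.211% of all genes tested). The interaction of siErk3 and PA was -0.37 (FDR 0.27) and was not called. Between siErk3 and siNTC the levels differed in BSA, at 47.5 ± 3.84 against 36.8 ± 1.42 CPM (SD, n = 3, no overlap), and not beyond their spread in PA, at 130.5 ± 9.53 against 130.8 ± 10.2 CPM. With the 18S share as a covariate the siMk5 interaction was -0.49 with an FDR of 0.147, so the call was lost, while over the other 18 alternatives it was kept. Among the 36 ATF4 response genes, no interaction was called.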

How the results depend on the processing

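The count of ATF4 response genes called for PA was 35, all of them higher, in siNTC, siErk3 and siMk5 under the other filters, the other scaling, DESeq2, the covariate and the fit with fewer groups, and 35 to 36 when a library was left out. The count of 36 came without replicate 2 of siErk3 PA and without replicate 2 of siMk5 PA, where Cbs was called as lower. Each of the 1365 values of the other 35 genes in these 3 comparisons under an alternative kept its call and direction. For siErk3 in BSA the count of 2 became 1 with the 18S share as a covariate, where Stc2 was lost (0.32, FDR 0.203), and ranged from 1 to 2 over the libraries left out. For siErk3 against siMk5 in BSA the count of 1 became 0 with that covariate, where Aldh1l2 was lost (0.40, FDR 0.134), and ranged from 0 to 1 over the libraries left out. The other silencing comparisons and both interactions gave 0 throughout. The cause of the changes was not tested. With TGATGNAAT in place of TGATGNAA the share of promoters with a match went from 30.0 to 6.7%, by construction of the longer motif.

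The replicate numbers were not treated as pairing the samples, since correlations of same-numbered libraries over 10553 genes ranged from -0.607 to 0.516 and only in siMk5 in BSA did every library correlate best with its own number. With a replicate block, 35 genes were called for PA in each siRNA group, 2 for siErk3 in BSA, 1 for siErk3 against siMk5 in BSA and 0 in the other comparisons, the same counts as without it.

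Of the other pathway genes, checked after their values were seen, Eif2s1, Mthfd1 and Ppp1r15b fell below 1.3-fold in the siNTC response under at least 1 alternative, all with the same direction.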
